A study of Mus musculus with 4 samples.

Results

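The 9 cathepsin genes Ctsa, Ctsb, Ctsc, Ctsd, Ctsh, Ctsk, Ctsl, Ctss and Ctsz and the gene of their inhibitor cystatin C, Cst3, were examined by RNA sequencing in cultured mouse macrophages. Per the study's text, these macrophages were derived from bone marrow. These 10 genes were taken by symbol from the 34745 genes of the count table, and all of them passed the filter on low counts that left 12418 genes for testing. The study asked which genes differ when macrophages lack G3bp1, the scaffold protein of stress granules (SGs), which are cytoplasmic condensates of mRNA and protein. There were 2 libraries of each genotype, labelled WT and KO and numbered 1 and 2. Per the study's text, the WT mice were G3bp1f/f, with the floxed gene, and the text does not state whether they carried Cre recombinase. The KO mice were G3bp1mac-/-, with the same floxed gene and Cre driven by the Lyz2 promoter, which is active in monocytes, macrophages and granulocytes and therefore does not limit the deletion to macrophages. Both groups were grown in DMEM with fetal bovine serum, and the labels list no treatment, age, sex or pooling of animals. Nothing in the labels says that the 2 libraries of a genotype came from separate mice, so the spread between them may be technical.

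Cathepsins are the proteases of the lysosome, made as inactive precursors, carried there by the mannose 6-phosphate pathway, and activated in its acid interior. Ctsd is an aspartic protease, Ctsa is a serine carboxypeptidase that also protects lysosomal sialidase and galactosidase, and the other 7 belong to the papain family of cysteine proteases. Cystatin C is a small secreted protein that binds cysteine cathepsins tightly and blocks their active site. It has no effect on the aspartic or the serine enzyme. In macrophages these proteases break down ingested material, trim the invariant chain during antigen presentation and, once secreted, cut the extracellular matrix.

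Promoter sequences were taken for the genes from RefSeq (build GRCm38.p6), and 8 of the 10 matched (all but Ctsb and Ctsh), with 9 windows from 250 bases before to 50 bases after an annotated start. Of these, 3 are printed without their last 50 bases. Cst3 is shown as the gene with the largest difference between genotypes, and Ctsd and Ctsa as the genes that held the letters TCACGTGA, the core of the CLEAR element that is bound by TFEB, a transcription factor of lysosomal genes. Capitals mark TCACGTGA or the shorter E-box CACGTG, searched on both strands. The E-box letters lie inside the longer motif, so every window with the longer motif also counts for the shorter.
Cst3, chr2:148875513-148875762, minus strand: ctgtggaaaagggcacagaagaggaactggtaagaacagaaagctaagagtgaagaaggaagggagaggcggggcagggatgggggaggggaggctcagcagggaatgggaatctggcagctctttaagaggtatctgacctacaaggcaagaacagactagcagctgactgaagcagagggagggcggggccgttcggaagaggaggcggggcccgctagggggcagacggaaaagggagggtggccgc
Ctsd, chr7:142387828-142388077, minus strand: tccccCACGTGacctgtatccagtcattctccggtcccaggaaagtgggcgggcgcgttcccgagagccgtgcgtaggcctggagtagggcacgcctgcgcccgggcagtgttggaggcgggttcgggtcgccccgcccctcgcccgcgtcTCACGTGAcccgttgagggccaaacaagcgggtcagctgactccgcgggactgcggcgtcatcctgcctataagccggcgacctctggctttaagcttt
Ctsa, chr2:164833523-164833772, plus strand, the second of its 2 annotated starts: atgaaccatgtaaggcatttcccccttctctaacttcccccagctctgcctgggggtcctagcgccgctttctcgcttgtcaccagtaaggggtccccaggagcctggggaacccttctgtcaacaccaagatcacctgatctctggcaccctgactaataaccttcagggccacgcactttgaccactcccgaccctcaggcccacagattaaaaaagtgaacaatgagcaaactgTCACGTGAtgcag
The E-box was present in 3 of the 9 windows (Ctsa, Ctsd and Ctsl) and in 7.15% of 32851 mouse promoter windows. TCACGTGA was present in 2 of the 9 windows and in 0.974% of all windows. It began 99 bases before the start in Ctsd and 13 bases before it in Ctsa, whose window held a second copy just after the start. The window of Cst3 held neither motif. GAGGAAGT, a core sequence bound by the myeloid factor PU.1, was present in 2 of the 9 windows (Ctss and Ctsc) and in 3.20% of all windows. A match of letters is a description and does not show that a factor bound there.

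On the GRCm38 genome, Cst3 (ENSMUSG00000027447) occupied chromosome 2 from 148871722 to 148875692 on the minus strand, with 3 exons in its principal transcript. Ctsa (ENSMUSG00000017760) and Ctsz (ENSMUSG00000016256) were also on chromosome 2, at 164832873 to 164841032 and at 174427493 to 174439039. Ctsk (ENSMUSG00000028111) and Ctss (ENSMUSG00000038642) were neighbours on chromosome 3, at 95499256 to 95509362 and at 95526786 to 95556403, both on the plus strand. Ctsc (ENSMUSG00000030560) was at 88278085 to 88310888 and Ctsd (ENSMUSG00000007891) at 142371148 to 142388038 of chromosome 7. Ctsh (ENSMUSG00000032359) was at 90054152 to 90076089 of chromosome 9, Ctsl (ENSMUSG00000021477) at 64363214 to 64370306 of chromosome 13 and Ctsb (ENSMUSG00000021939) at 63122462 to 63145919 of chromosome 14. Counts refer to whole genes, and do not say which exons or UTRs the reads covered. Ctsa overlaps Neurl2 and Pltp, and Ctsb overlaps Fdft1, all on the opposite strand. These 3 genes had at most 2432 counts in any library, against at least 31677 for Ctsa and 368526 for Ctsb.

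The libraries held between 16724241 and 19747909 counts, of which the 10 genes took 9.09% and 7.99% in WT and 8.11% and 7.81% in KO. Where a library had a count of 0, the upper limit from counting error alone was between 0.152 and 0.179 CPM, the unit of counts relative to the size of the library. The first principal component of all genes (57.4% of the variance) separated the libraries numbered 1 from those numbered 2, and the second (34.3%) separated WT from KO. G3bp1 itself was counted 1691 and 2875 times in WT and 1307 and 2296 times in KO, which gave a log2 difference of KO from WT (the log2 fold change) of -0.61 (SE 0.40, adjusted p 0.904 by the quasi-likelihood test of edgeR). The WT and KO libraries overlapped for this gene, with log2 ratios of -0.57 between the libraries numbered 1 and -0.63 between those numbered 2. From replicate 1 to replicate 2 it differed by 0.79 on the log2 scale in WT and by 0.73 in KO. As whole-gene counts do not resolve the floxed exons, the labels could not be checked by it, and each direction below rests on them. Of 7 macrophage markers, Lyz2 had a mean of 15140 FPKM (counts per gene length and library total), the highest level of any gene. Cd68 had 1497, Adgre1 152 and Csf1r 83.7 FPKM, and Itgam, Fcgr1 and Mertk were lower, at 29.9, 12.2 and 8.33 FPKM. Adgre1 and Csf1r were higher in replicate 2 than in replicate 1 in both genotypes, and Fcgr1 was lower.

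The cathepsin transcripts were among the most abundant in these macrophages. On the FPKM scale, which allows genes to be compared, Ctsd had the fifth and Ctss the sixth highest mean of all genes, Ctsl the ninth and Ctsb the tenth. Ctsd had 7877 and 6779.5 FPKM in WT and 7631 and 6796 in KO. Ctss, the elastin-cutting cathepsin of antigen-presenting cells, had 8458.5 and 7308 FPKM in WT and 5946 and 6979 in KO. These genes changed places between libraries, as Ctsd was higher than Ctss in only 1 of the 4. Ctsl, an endopeptidase of lysosomes and endosomes, had a mean of 4987 FPKM, and Ctsb, which cuts both within and at the ends of chains, a mean of 4705. Ctsl was higher than Ctsb in 2 of the 4 libraries. Ctss exceeded Ctsl in each library, although their ranges over libraries overlapped.

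Below these 4 came Ctsz, a carboxypeptidase, with a mean of 2319 FPKM, Cst3 with 1049 and Ctsk, the collagen-cutting cathepsin best known from osteoclasts, with 762. Cst3 was higher than Ctsk in 4 of 4 libraries, but by only 0.10 on the log2 scale in the nearest one, and their ranges overlapped. Ctsa (198 FPKM), the aminopeptidase Ctsh (92.4 FPKM) and the dipeptidyl peptidase Ctsc (35.4 FPKM), which activates granule proteases of neutrophils and mast cells, were lowest, in that order in every library and with ranges apart. Even Ctsc ranked 1248 among all genes.

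**Figure D1:**
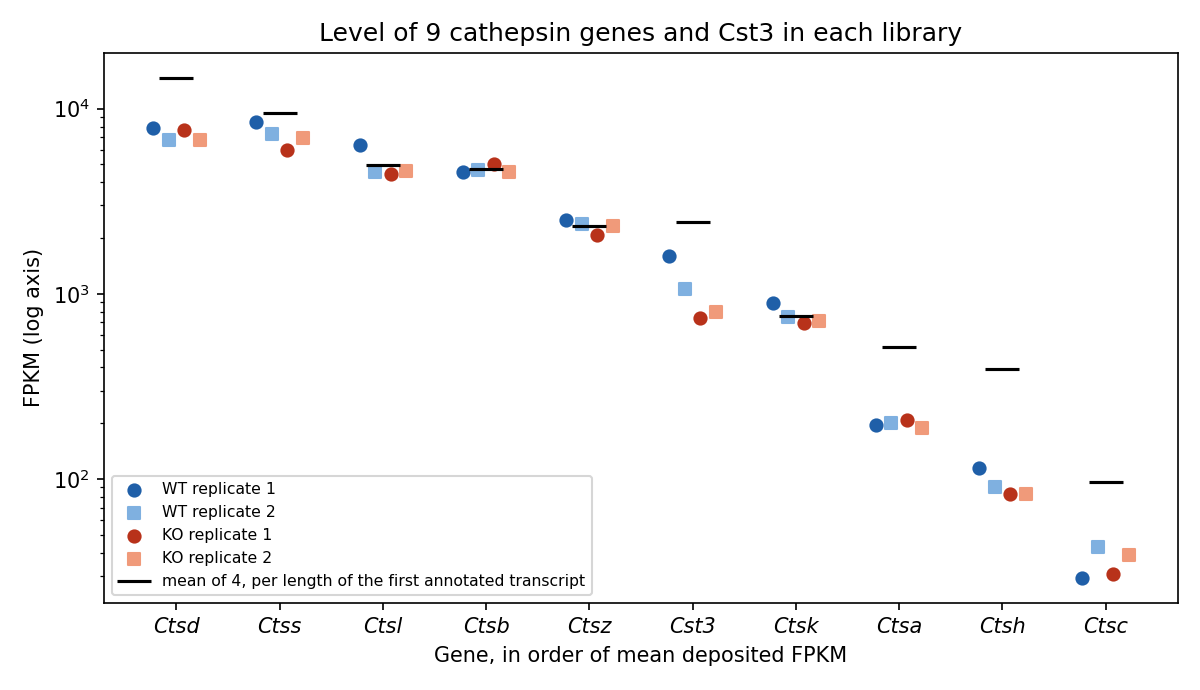
Level of each gene in the 4 libraries as deposited FPKM on a log axis, in order of the mean (blue, WT; red, KO; circles, replicate 1; squares, replicate 2). The black dashes give the mean over 4 libraries with the length of the first annotated transcript in place of the length used in the file, which moves Cst3 from 1049 to 2431 and, with that transcript, leaves Ctsl, Ctsb, Ctsz and Ctsk in place.

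The order depends on the gene length that was used. The lengths implied by the counts and FPKM exceeded that of the first annotated transcript in 6 of the 10 genes, by 4.24 times for Ctsh, 2.71 times for Ctsc, 2.61 times for Ctsa, 2.32 times for Cst3, 2.02 times for Ctsd and 1.33 times for Ctss. With the transcript length in their place, Ctsd had a mean of 14651 FPKM and lay apart from Ctss at 9512 in each library. Cst3 then had 2431 FPKM and passed Ctsz at 2319, with the 2 genes changing places in 2 of 4 libraries. The principal transcript of Ctsl, of 6168 bases, is longer than the 1971 bases used in the file. With it, Ctsl had a mean of 1594 FPKM and came after Ctsb, Cst3 and Ctsz. Ctsa, Ctsh and Ctsc kept the lowest places on each of these scales.

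Differences between genotypes were compared on CPM with the libraries scaled by TMM, which assumes that most genes do not differ. Cst3 had the largest difference of the 10 genes. It had 3347 and 2249 CPM in WT and 1321 and 1586 CPM in KO, or 2798 ± 776 against 1453 ± 187 CPM (SD, n = 2 each). Both KO libraries lay below both WT libraries, and the KO level was 51.9% of the WT level. In log2 units the difference was -0.94 with SE 0.27 and a 95% confidence interval from -1.63 to -0.26. The unadjusted p was 0.0161 and the adjusted p over all genes was 0.481 (edgeR quasi-likelihood test, two-sided), so Cst3 did not pass in this fit, whose only term is genotype. KO over WT gave a log2 ratio of -1.34 between the libraries numbered 1 and -0.50 between those numbered 2. WT replicate 1 held the highest level, and without it the log2 fold change was -0.63, against -1.23 without WT replicate 2.

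**Figure D2:**
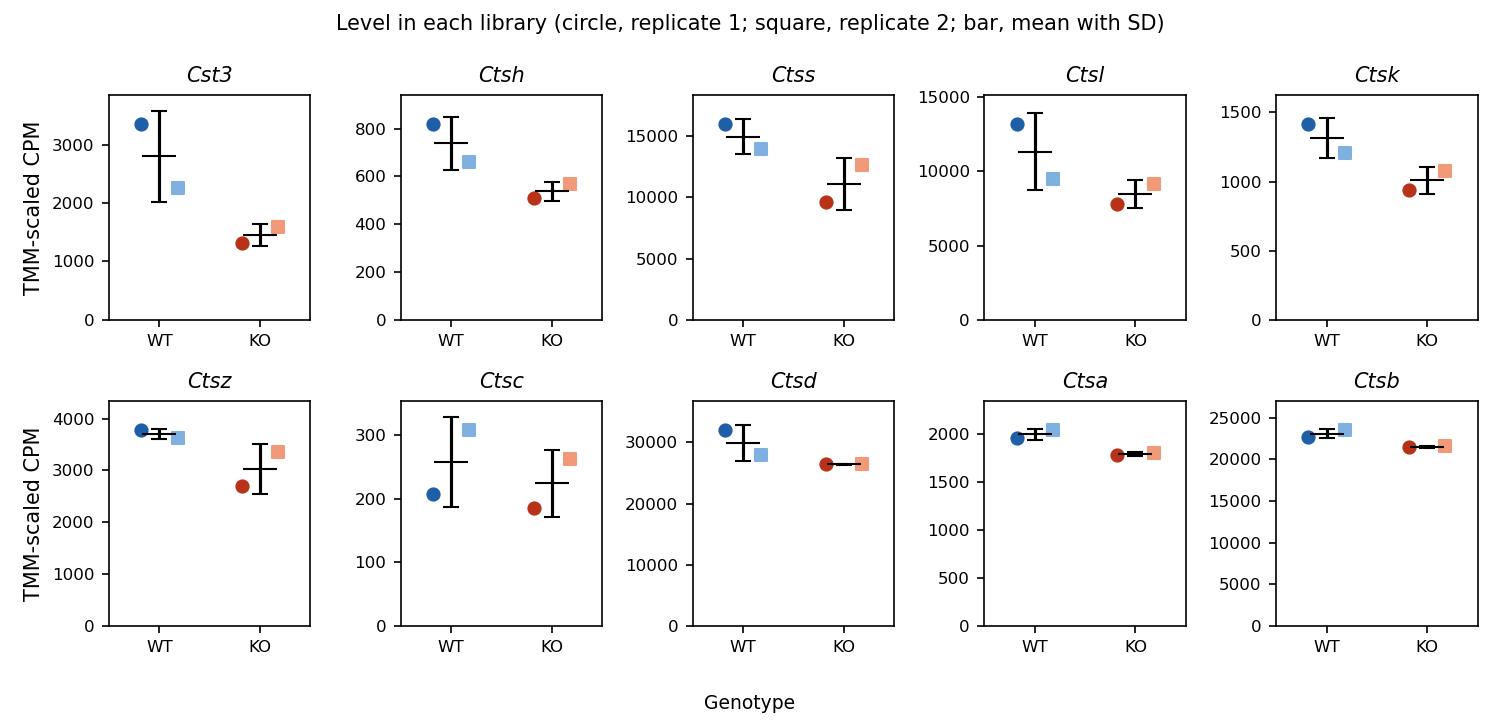
TMM-scaled CPM of each gene in the 2 WT and 2 KO libraries (circles, replicate 1; squares, replicate 2), with the mean and SD of each genotype and every axis starting at 0. The KO libraries lie below the WT libraries for each gene but Ctsc, whose circles lie below its squares in both genotypes.

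Among the cysteine endopeptidases, the same direction was seen at a smaller size. Ctss had 15934 and 13950 CPM in WT and 9589 and 12582 in KO, which gave a log2 difference of -0.43 (SE 0.20). Ctsl had 13160 and 9486 CPM in WT and 7833 and 9136 in KO, which gave a log2 difference of -0.42 (SE 0.22). Ctsk had 1413 and 1210 CPM in WT and 938 and 1079 in KO, which gave a log2 difference of -0.38 (SE 0.22). For these 3 genes the KO libraries lay below the WT libraries, and KO replicate 1 was the lowest of the 4. For Ctsl the nearest WT and KO libraries differed by little, and the log2 ratio was -0.75 between the libraries numbered 1 and -0.05 between those numbered 2. The 95% confidence intervals included 0, from -0.94 to 0.08 for Ctss, from -0.98 to 0.15 for Ctsl and from -0.93 to 0.17 for Ctsk. Adjusted p-values were 0.841, 0.857 and 0.879 (edgeR). Ctsb had 22720 and 23501 CPM in WT and 21441 and 21569 in KO, the most even level of the 10 genes. Its log2 fold change was -0.10 (SE 0.14, edgeR adjusted p 0.964) and turned to 0.05 when libraries were scaled by their totals alone.

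The 3 exopeptidases of the family differed from each other in pattern. Ctsh had 817 and 660 CPM in WT and 508 and 566 in KO, which gave a log2 difference of -0.46 (SE 0.23, 95% confidence interval -1.05 to 0.13, edgeR adjusted p 0.848). Ctsz had 3773 and 3627 CPM in WT and 2692 and 3364 in KO, which gave a log2 difference of -0.29 (SE 0.20, edgeR adjusted p 0.918), with KO replicate 1 well below the other 3 libraries. Neither gene overlapped between genotypes. Ctsc had 207 and 307 CPM in WT and 186 and 261 in KO, and its libraries were arranged by their number rather than by genotype. It was higher in replicate 2 than in replicate 1 by 0.57 on the log2 scale in WT and by 0.49 in KO, against a difference between genotypes of -0.20 (SE 0.32, edgeR adjusted p 0.971). The sign of that difference turned to 0.08 without WT replicate 2 and to 0.02 without KO replicate 1.

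The aspartic and serine enzymes, which cystatin C does not inhibit, had the narrowest ranges beside Ctsb. Ctsd had 31981 and 27893 CPM in WT and 26525 and 26407 in KO, which gave a log2 difference of -0.18 (SE 0.15, edgeR adjusted p 0.941). Ctsa had 1953 and 2034 CPM in WT and 1772 and 1801 in KO, which gave a log2 difference of -0.16 (SE 0.19, edgeR adjusted p 0.964). On library totals the log2 fold changes were -0.02 for Ctsd and -0.0024 for Ctsa. The other genes also moved, to -0.06 for Ctsc, -0.14 for Ctsz, -0.23 for Ctsk, -0.27 for Ctsl, -0.29 for Ctss, -0.31 for Ctsh and -0.80 for Cst3. The size of each difference, and for Ctsb also its direction, thus moved with the TMM factors. These were 1.12 and 0.997 in KO and 0.955 and 0.942 in WT. When each library was left out in turn, the log2 fold change ranged from -0.66 to -0.16 for Ctsl, from -0.52 to -0.26 for Ctsk, from -0.64 to -0.29 for Ctsh and from -0.30 to -0.07 for Ctsd, with the value nearest 0 without WT replicate 1 and the farthest without WT replicate 2. It ranged from -0.64 to -0.25 for Ctss and from -0.46 to -0.14 for Ctsz, nearest 0 without KO replicate 1 and farthest without KO replicate 2.

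**Figure D3:**
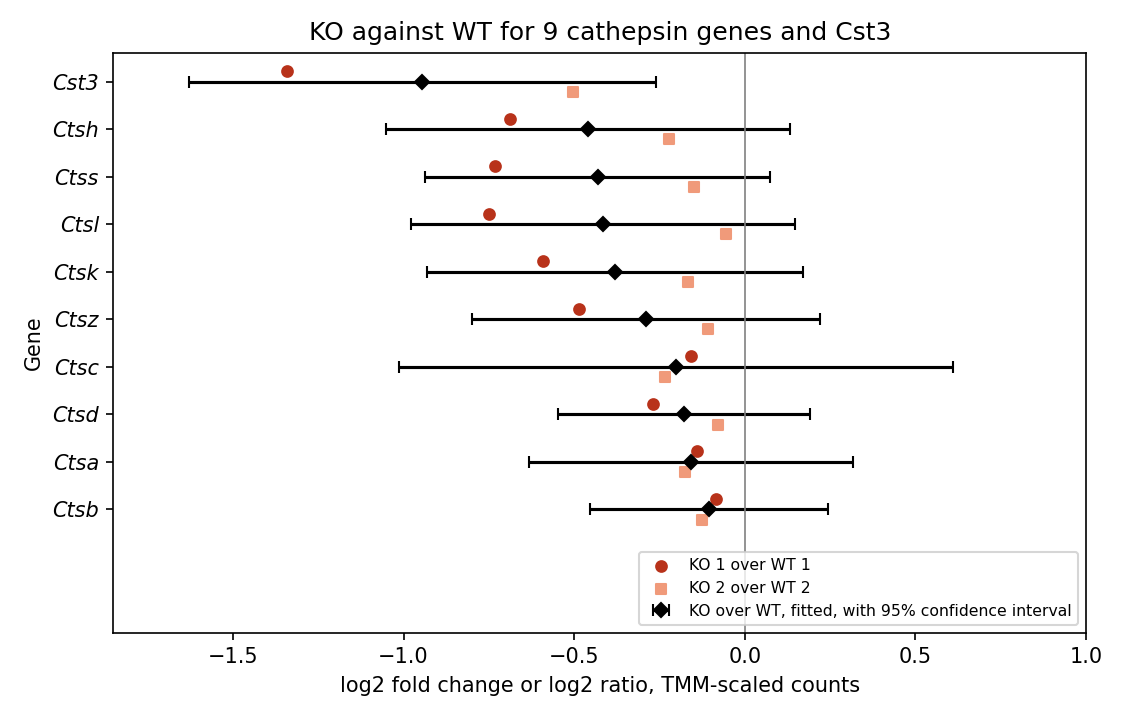
Log2 fold change of KO over WT on TMM-scaled counts, with the 95% confidence interval of edgeR's quasi-likelihood fit (black), and the log2 ratio between the libraries of the same number (circles, number 1; squares, number 2). Only the interval of Cst3 excludes 0, and the ratio of number 1 is the lower of the pair in each gene except Ctsa, Ctsb and Ctsc.

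Of the list as a whole, 0 of the 10 genes were called, which required an adjusted p under 0.05 with a log2 fold change beyond 1 in either direction, where edgeR called 0 of all 12418 genes (0%). At an unadjusted p under 0.05, 1 of the 10 genes (Cst3) was lower in KO, against 247 of all genes (1.99%). The log2 fold change was below 0 in 10 of 10 genes on TMM-scaled counts and in 9 of 10 on library totals, where Ctsb was above 0. Over all genes 45.4% and 31.3% were below 0. The median of the 10 genes was -0.33 beside 0.04 for all genes. On library totals it was -0.19 beside 0.20, as that scaling raised the median of all genes by 0.15. Both KO libraries lay below both WT libraries in 9 of the 10 genes on TMM-scaled CPM, against 16.9% of all genes, and in 5 of the 10 (Cst3, Ctsh, Ctsk, Ctss and Ctsz) on library totals, against 9.38%. The DESeq2 Wald test called 0 of the 10 genes, against 181 of all 12418, and the edgeR exact test 0 of the 10, against 229. Limma called 0 of the 10 genes on either scale of FPKM. Over all genes it called 0 on log2(FPKM + 1) and 2 on log2(FPKM + 0.1).

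The difference was larger between the libraries numbered 1. The median log2 ratio of the 10 genes was -0.54 for number 1 and -0.16 for number 2, where the medians of all genes were 0.11 and -0.0013. Both ratios were below 0 in 10 of 10 genes and in 29.0% of all genes. From replicate 1 to replicate 2, Cst3 differed by -0.57 on the log2 scale in WT and by 0.26 in KO, and Ctsl by -0.47 and 0.22. The same opposite signs were found for Ctsh, Ctsk, Ctss and Ctsz, so for these 6 genes the genotypes were closer to each other in replicate 2.

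Gene length moved with the difference. Over all genes tested, the median log2 fold change was -0.51 for the 499 genes with an implied length under 1000 bases, -0.25 for the 1259 genes from 1000 to 2000 bases, -0.04 for the 2916 from 2000 to 4000 bases and 0.12 for the 7744 longer ones. Cst3, Ctsk, Ctsl, Ctss and Ctsz were in the second of these classes, where the median ratio was -0.40 between the libraries numbered 1 and -0.06 between those numbered 2. By the 860 bases of its first annotated transcript, Cst3 would be in the first class, where these medians were -0.81 and -0.115. After a trend with length was removed from each library, the log2 fold change was -0.83 for Cst3, -0.29 for Ctss and Ctsl, -0.17 for Ctsk and -0.07 for Ctsz. Those of genes with long implied lengths became larger, at -0.61 for Ctsh and -0.37 for Ctsa. The lengths of Cst3, Ctsh and Ctsa in this correction are the implied ones that exceed the first transcript, so the corrected values depend on them.

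Because cystatin C acts on the cysteine cathepsins, the sum of the 7 cysteine cathepsins was set against Cst3 in each library, on the FPKM scale. The sum was 22933 and 19762 FPKM in WT and 18301 and 19294 FPKM in KO. Cst3 was 1602 and 1062 FPKM in WT and 738 and 793 FPKM in KO. The ratio of protease to inhibitor transcripts was 14.3 and 18.6 in WT and 24.8 and 24.3 in KO, without overlap. On the log2 scale it was 4.03 ± 0.27 in WT and 4.62 ± 0.019 in KO (SD, n = 2 each). The difference was 0.59, with a p of 0.33 in the two-sided exact permutation test, the smallest value that 2 against 2 libraries allow. Without Ctsk and Ctsl it was 0.62. With the length of the first annotated transcript in place of the implied length, the ratio was 7.03 and 9.14 in WT and 12.01 and 11.9 in KO, a log2 difference of 0.58, so its level depends on the lengths. The ratio does not depend on how libraries are scaled, but it was not corrected for the trend with gene length. In that trend Cst3 and Ctsb, 1 of the proteases summed, lie in different length classes. The ratio concerns transcripts, not protein or activity. The summed share of all 10 genes in the counts differed by -0.58 percentage points between KO and WT (exact permutation test, p = 0.667) and by -0.033 without WT replicate 1.

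**Figure D4:**
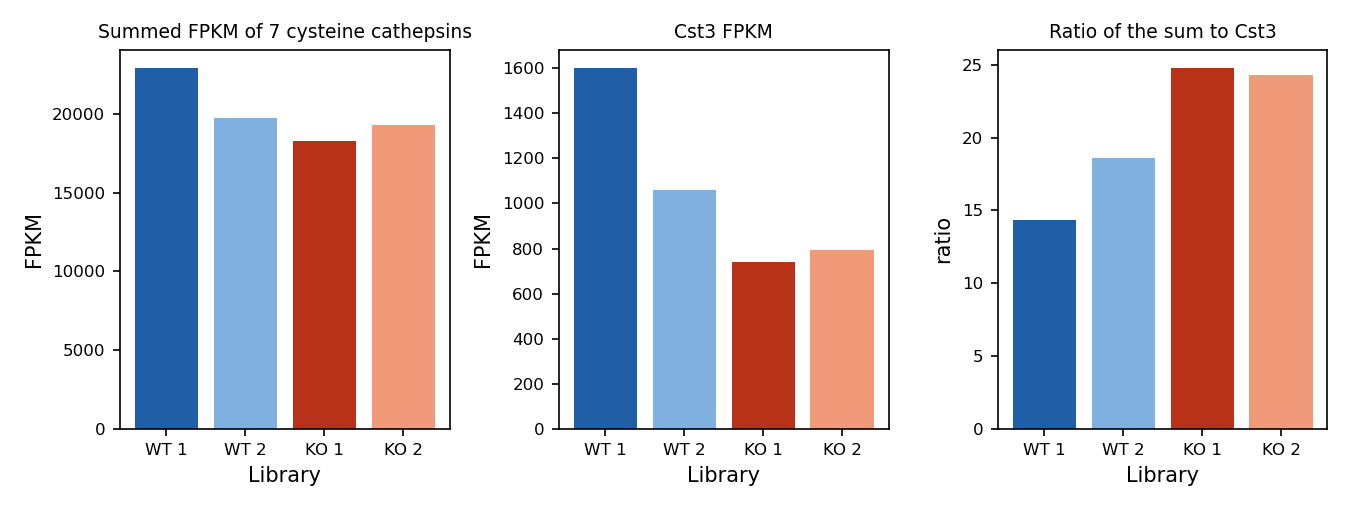
Summed FPKM of the 7 cysteine cathepsins (left), FPKM of Cst3 (middle) and their ratio (right) in each library, as bars from 0. The ratio is 14.3 and 18.6 in the WT libraries and 24.8 and 24.3 in the KO libraries, and the Cst3 bars differ more between genotypes than the protease bars.

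Within a library the count of a gene relative to that of Ctsb is likewise free of scaling. The log2 ratio of Cst3 to Ctsb counts was -2.76 and -3.39 in WT and -4.02 and -3.77 in KO, a difference of -0.82. For Ctsh the difference was -0.35, for Ctss -0.34, for Ctsl -0.30, for Ctsk -0.27 and for Ctsz -0.19. For Ctsa, Ctsc and Ctsd it was between -0.09 and -0.05. It is not free of the trend with gene length, as Ctsb is in the class of longer genes. After the length correction the log2 fold change differed from that of Ctsb by -0.62 for Cst3, -0.41 for Ctsh, -0.16 for Ctsa, -0.13 for Ctsc, -0.09 for Ctsl, -0.08 for Ctss and -0.04 for Ctsd, and by 0.04 for Ctsk and 0.14 for Ctsz, which turned sign. The exact permutation test cannot go below 0.33 here. It gave that value for Cst3, Ctsh, Ctss, Ctsk and Ctsa, 0.667 for Ctsl, Ctsz and Ctsc, whose ratios overlapped between genotypes, and 1 for Ctsd.

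The pattern of a gene over the 4 libraries was compared with that of the 8089 tested genes with a mean of at least 10 CPM, by the root mean square difference of centred log2 CPM. For Cst3, which had the widest range of the 10 genes, the nearest genes were Rps27rt (0.036), Lgals1 (0.053), which encodes galectin 1, and Gm10073 (0.067). Rps27rt had 705 and 451 CPM in WT and 263 and 331 in KO. Lgals1 had 2681 and 1983 CPM in WT and 1137 and 1316 in KO. The nearest genes to Ctsl were Spcs2 (0.015), Snrpd2 (0.015) and Mrpl55 (0.015), and those to Ctss were Naa20 (0.0069), Dynlrb1 (0.014) and Rbm8a (0.017). Among the 10 genes, Ctsa and Ctsb differed by 0.028 and Ctsh and Ctsk by 0.050, whereas Cst3 and Ctsc had no close partner, at 0.26 from Ctsh and 0.23 from Ctsz. These are descriptions over 4 libraries, and all genes share the depth and scaling factor of each library. The trend with gene length was not removed from these patterns.

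The other genes of the pathway were described from lists. Of 14 further cathepsin genes, 3 were tested, and 9 were at 0 in all 4 libraries. Ctso was the most abundant of them, at 18.3 FPKM, with 107 and 106 CPM in WT and 101 and 109 in KO. Ctsf had 2.01 FPKM and Ctse 0.790 FPKM, and 0 of the 3 had an unadjusted p under 0.05. Of 22 other cystatins, stefins and serpin inhibitors of cathepsins, 6 were tested and 0 passed in either direction. Cstb, which encodes the cytosolic inhibitor cystatin B, was by far the most abundant of them, at 3054 FPKM. It had 2503 and 1999 CPM in WT and 1225 and 1689 in KO, with a log2 difference of -0.63 (SE 0.26, edgeR adjusted p 0.776). This is the same order of libraries as for Cst3, with WT replicate 1 highest and KO replicate 1 lowest. Serpina3g, an intracellular inhibitor of Ctsb and Ctsl, had the opposite direction, at 1.91 and 5.15 CPM in WT and 8.64 and 8.54 in KO (log2 fold change 1.28, SE 0.51, edgeR adjusted p 0.756). Serpinb6a, Serpinb1a and Serpinb9 had log2 fold changes of 0.32, -0.16 and -0.04.

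Of the 20 tested genes that deliver and mature lysosomal enzymes, 0 passed the adjusted threshold, and 10 were below 0 with a median of -0.0047. The most abundant were Psap, the precursor of the saposins (4233 FPKM, log2 fold change -0.08), the membrane protein gene Lamp1 (1701 FPKM, 0.06), Lgmn, which encodes the protease legumain that matures several cathepsins (743 FPKM, -0.25), and Scpep1 (307 FPKM, 0.02). Cpq had an unadjusted p of 0.0368 (edgeR, adjusted p 0.676) and a log2 fold change of -0.62, and the sorting receptor genes Sort1 and Sorl1 had 0.63 and 0.55. Of the 18 subunits of the proton pump that acidifies lysosomes, 13 were below 0 with a median of -0.20, and 0 had an unadjusted p under 0.05. Atp6v0d2 (600 FPKM) and Atp6v1g1 (553 FPKM) led in level, and Atp6v1f and Atp6v0e had the most negative values, at -0.59 and -0.56. Of 9 regulators of lysosomal and myeloid genes, 2 were below 0 with a median of 0.25 and 0 passed. Tfeb had a log2 fold change of 0.28, and Tfec, of the same family, had -0.78 (edgeR, unadjusted p 0.105, adjusted p 0.849). Spi1, which encodes PU.1, had 294 and 610 CPM in WT and 242 and 551 in KO and was arranged by number, as Ctsc was.

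**Figure D5:**
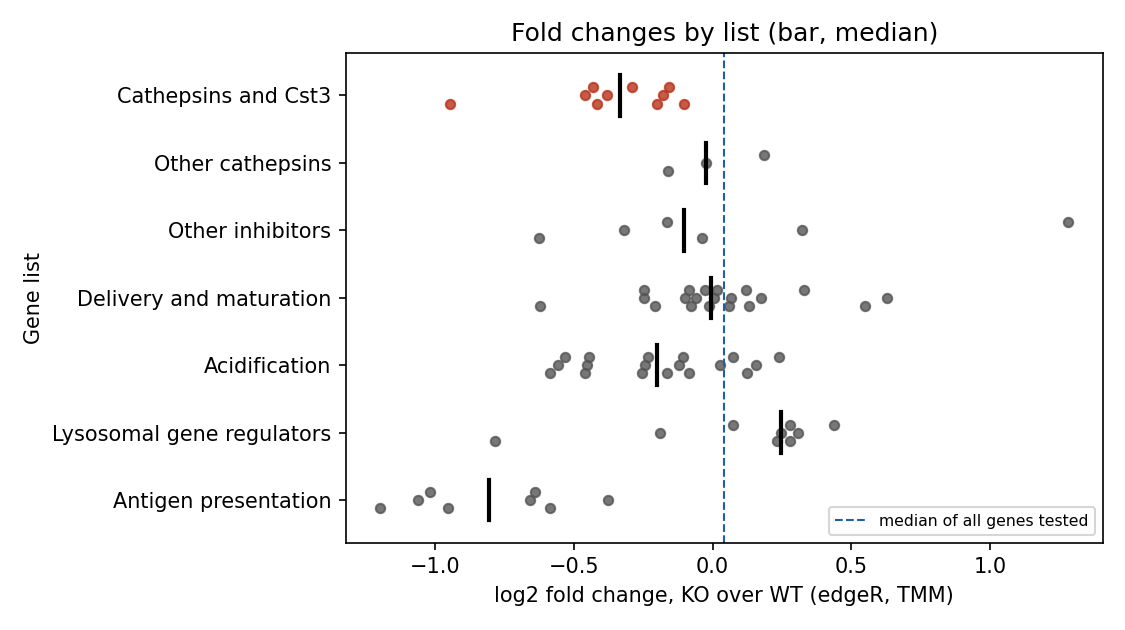
Log2 fold change of KO over WT (edgeR, TMM) of each tested gene, for the 9 cathepsins and Cst3 (red) and for 6 lists of related genes (grey), with the median of each as a black bar and the median of all genes as a dashed line. The medians range from -0.80 for antigen presentation to 0.25 for lysosomal gene regulators.

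Genes of class II antigen presentation, whose invariant chain is cut by Ctss, had the lowest values of the 6 lists. All 8 tested were below 0 with a median of -0.80, and 5 (H2-Aa, H2-Ab1, H2-Eb1, H2-DMa and H2-DMb1) had an unadjusted p under 0.05, against 1.99% of all genes lower in KO at that level, with 0 past the adjusted threshold. Cd74, the invariant chain itself, had 194 and 267 CPM in WT and 130 and 163 in KO, a log2 fold change of -0.66 (edgeR adjusted p 0.800). Ifi30, a lysosomal thiol reductase, had -0.38. The log2 ratio of Cd74 was -0.58 between the libraries numbered 1 and -0.72 between those numbered 2.

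Markers of other cells were set beside these values, and 0 of them passed the adjusted threshold (edgeR). The summed level of 9 stromal markers was 75.3 and 88.8 CPM in WT and 331 and 304 CPM in KO, and 7 of the 9 had an unadjusted p under 0.05, each higher in KO, against 576 of all genes (4.64%) in that direction. The summed level of 9 neutrophil markers was 22.9 and 21.8 CPM in WT and 8.37 and 11.5 in KO. Most of it was S100a8, at 14.5 and 15.2 CPM in WT and 7.14 and 10.6 in KO, and S100a9, at 5.61 and 5.15 against 0.107 and 0.0508. Elane and Mpo were at 0. The 5 mast cell and basophil markers summed to 32.0 and 35.1 CPM in WT and 17.8 and 21.6 in KO. Most of that sum was Cpa3, at 29.8 and 31.3 CPM in WT and 15.9 and 19.2 in KO. Mcpt8 was at 0, and Ms4a2 and Prss34 had between 4 and 8 counts per library. The sum of 5 B cell markers was 15.97 and 16.8 CPM in WT and 8.80 and 8.48 in KO. At an unadjusted p under 0.05 there was 1 of the 3 tested neutrophil markers, 1 of the 2 tested mast cell and basophil markers and 1 of the 3 tested B cell markers, each lower in KO, against 1.99% of all genes. The 8 osteoclast markers, which bear on Ctsk, summed to 260 and 514 CPM in WT and 197 and 390 in KO, with Oscar and Calcr at 0. Most of this sum was Acp5, at 213 and 444 CPM in WT and 136 and 345 in KO. Dcstamp had 8.01 and 14.5 CPM in WT and 4.13 and 5.89 in KO, without overlap, at a log2 fold change of -1.17 (edgeR, unadjusted p 0.0336, adjusted p 0.663), and Mmp9 had -1.20, with 3.14 and 28.6 CPM in WT and 3.17 and 10.6 in KO. Nfatc1 and Itgb3 had 0.46 and 0.39. The 8 dendritic cell markers summed to 275 and 388 CPM in WT and 395 and 428 in KO, most of it Itgax, whose KO libraries lay above its WT libraries (log2 fold change 0.33). Zbtb46 had 0.95, with 0.493 and 2.20 CPM in WT and 1.40 and 3.81 in KO. Ccr7 and Batf3 had the other direction, at -0.86 and -0.75, with both KO libraries below both WT libraries and edgeR adjusted p-values of 0.848 and 0.841. The 5 T and NK cell markers summed to at most 1.36. The 7 macrophage markers summed to 26197 and 23614 CPM in WT and 20950 and 23936 in KO, most of it Lyz2. Of the 7, 1 had an unadjusted p under 0.05, Itgam, higher in KO (log2 fold change 0.82, edgeR, unadjusted p 0.0449, adjusted p 0.725). A second gene with that symbol was counted 1756 and 4161 times in WT and 980 and 2325 times in KO, so the direction for Itgam is uncertain. What part these cells had in the levels of Cst3 and the cathepsins was not tested, and in bulk RNA fewer cells of a type and less RNA per cell cannot be told apart.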

How the data were processed

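Total RNA of 4 macrophage cultures was sequenced on an Illumina instrument. Per the labels, the authors aligned reads with HISAT2 2.0.4 and assembled them with StringTie 1.3.3b. The deposited counts are whole numbers of fragments per gene, not normalised. The deposited FPKM values, from the authors, divide each count by a gene length and the library total, without a TMM factor, since the implied length of 10564 genes differed by at most 0.00398% between libraries. The labels list build mm39, but 27686 of the 34267 gene identifiers shared with GENCODE M21 have its GRCm38 start and end, so positions are given on GRCm38. Whether counting used the strand is not given in the sources used here, so overlapping genes may share counts. There were 0 value columns of no sample, and no sample was left out.

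The fit used edgeR 4.0.16 (R 4.3.3). Its filterByExpr function, set to a minimum count of 10 and a minimum total of 15, left 12418 genes out of 17991 that had a count. TMM scaled the libraries, genotype was the only term, and the quasi-likelihood test was two-sided with Benjamini-Hochberg adjustment. Log2 ratios between libraries had 0.5 counts added. Limma 3.58.1 was run on log2(FPKM + 1) and log2(FPKM + 0.1), and DESeq2 1.42.0 on the counts. Where a symbol named more than 1 gene, as Itgam did, the gene with more counts was used. The code was tested on simulated data. As reads had no molecular identifiers, the floors include nothing but counting error. Counts of every pair of libraries differed beyond sampling noise.

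The 10 genes and the lists were chosen with earlier results of these data known. By the rule for names, the 10 genes and G3bp1 are named always, up to 4 genes of highest FPKM and up to 3 of smallest p come from each list (named here where they bear on the text), and the 3 nearest in pattern are named for the 3 genes of widest range. Scaling by library totals, TMM without the 10 genes, transcript lengths, and the replicate term with no minimum fold change were chosen after seeing the data.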

Additional observations from a re-analysis of the deposited data

How the results depend on the processing

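Over all genes, where 0 were called, 1 was called with library totals, 2 with limma on log2(FPKM + 0.1), 181 with the DESeq2 Wald test and 229 with the edgeR exact test. The labels number the libraries 1 and 2 in both genotypes but do not say what a number shares. Deviations from the genotype means correlated at 0.71 between same-numbered libraries. With a replicate block, 664 genes were called, 974 (7.84%, of which 390 or 3.14% of all genes were lower) with no minimum fold change, and 390 with the block and a gene length correction. In that block 0 of the 10 genes were called, and 1 of them, Cst3, with no minimum fold change (log2 fold change -0.92, edgeR adjusted p 0.00285). Correcting that fit for length, Cst3 had an adjusted p of 0.0648 (edgeR). Its log2 fold change ranged from -1.23 without WT replicate 2 to -0.63 without WT replicate 1, and its edgeR, DESeq2 or limma adjusted p over all settings ranged from 0.00285 to 1.00.

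Ctsb reversed to 0.052 with library totals and to 0.050 with limma on either log2 scale of FPKM. Ctsc ranged from -0.47 to 0.078 when each library was left out. The other 8 genes remained below 0 in every setting tried, with Ctsa and Ctsd nearest to 0. The median of the 10 genes ranged from -0.48 to -0.18. The log2 ratio of proteases to Cst3 ranged from 0.40 to 0.78 and the summed share from -1.13 to -0.033 percentage points. No paired test of these ratios was run. The cause of these changes was not tested. The lowest count of any of the 10 genes in a library was 3360, for Ctsc.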
